A study of Mus musculus with 26 samples.

Results

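Transcript levels of the mouse skin carcinoma line B9 were compared with those of 3 lines that carry its name, B9ras, B9Smad and B9rassmad. These 4 lines were chosen by their titles from the 26 mouse skin cell lines of the series, each measured on 1 Affymetrix M430 2.0 array. The 3 derivatives are taken from their names as B9 cells with Ras, with Smad or with both. The labels do not say which Ras or Smad gene is meant, how it was introduced, which control vector was used or whether a line is 1 clone. B9, B9ras and B9rassmad were labelled as squamous carcinoma lines without spindle pathology. For B9Smad the labels conflicted, since its cell type label gives a spindle shape and its spindle flag does not. All lines were grown with serum, and RNA was taken in log phase from cultures given no further treatment in the labels. The lines most used for comparison were PDV, PDVC57 and MSCP1, which are carcinoma lines without spindle pathology, and P6, the papilloma line. With SN161, MSCP5, MSC12, MSC11B, E4 and MSC7A, the lines PDV, PDVC57 and MSCP1 form the 9 other carcinoma lines without spindle pathology. Spindle lines are named where they are used. MSCP1 is labelled as coming from a tumour of a Spretus/CBA cross.

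Ras proteins are small GTPases that pass growth factor signals to the ERK kinase cascade, and an activated Ras gene is the usual first event in chemically induced mouse skin tumours. Smad proteins carry signals of TGF-beta, activin and BMP receptors from the membrane to the nucleus. In carcinoma cells of the skin, Ras and TGF-beta signalling together are known for their part in the epithelial to mesenchymal transition (EMT). In that transition junctions and keratins are lost and genes such as vimentin and fibronectin are switched on.

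The deposited values are on a log2 scale, so a difference of 1 is a 2-fold difference. A gene was represented by 1 probe set and kept where at least 1 of the 4 B9 lines lay above the median of its own array, which held for 11731 of 18193 genes. Array medians of the 4 lines lay between 5.08 and 5.15, and values near 3 or 4 are at the array's background. There was 1 array per line, so no difference has a replicate check and no p-value is given. Higher and lower mean a difference of at least 2-fold between 2 arrays, and this counts differences between the arrays, not effects of the genes in the names.

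The first question was whether each derivative resembled B9. B9ras differed 2-fold from PDV in 307 genes, from MSCP1 in 430 and from B9 in 1962. Over all 325 pairs of lines the median was 2333 genes and the range 146 to 4242. The pair of B9ras and PDV was the third closest of the 325, after PDV with MSCP1 and A5 with H11. B9Smad was nearest to B9ras with 657 genes and to PDV with 718, and it differed from B9 in 2604. B9rassmad was nearest to B9Smad with 1150 genes, then to the spindle line H11 with 1223 and to E4 with 1297, and it differed from B9 in 2990. B9 itself was nearest to the papilloma line P6 with 1721 genes. By name these are 3 derivatives of B9, yet for B9Smad and B9rassmad the distance from B9 was above the median of all pairs of lines.

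**Figure D1:**
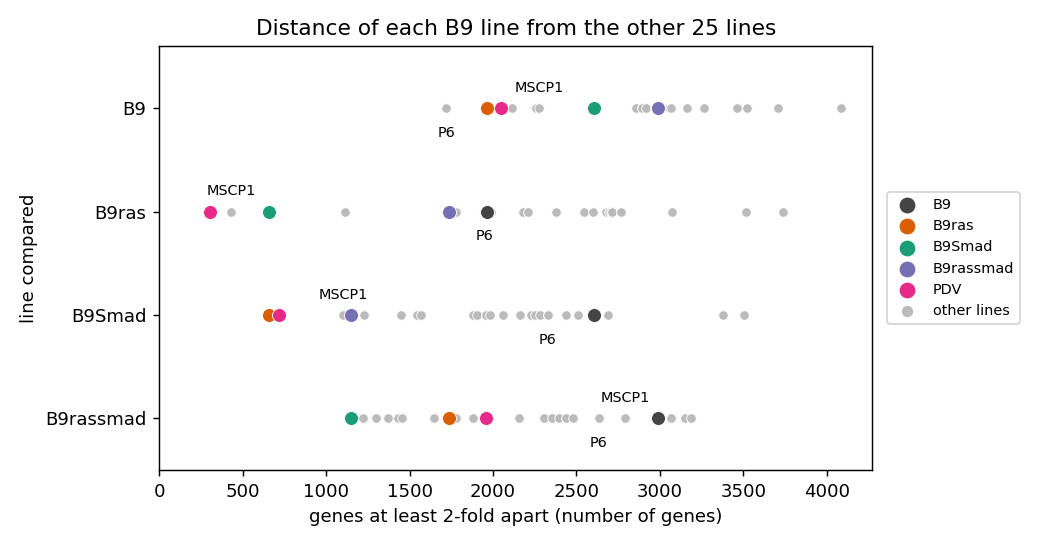
Number of genes at least 2-fold apart (x axis, genes) between each of the 4 B9 lines (rows) and every other line (1 point per line, with B9, B9ras, B9Smad, B9rassmad and PDV in colour and other lines in grey). B9ras lies 307 genes from PDV and 1962 from B9, while B9rassmad lies 1960 from PDV and 2990 from B9.

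Correlations over the 11731 genes, after each gene was centred on its mean over all lines, gave largely the same order. They are a description, since all arrays share a platform and a normalisation and genes are not replicates. The correlation with PDV was 0.83 for B9ras and 0.61 for B9Smad. The correlation of B9 with B9ras, 0.29, was the same as that of B9 with PDV. B9rassmad correlated at 0.10 with B9ras and at 0.28 with B9Smad.

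Genes that separate B9 from PDV by 16-fold or more gave a sharper view. There were 95 such genes, 43 higher in B9 and 52 higher in PDV. B9ras lay within 2-fold of PDV for 76 of them and within 2-fold of B9 for 2. B9Smad lay near PDV for 65 and near B9 for 0. B9rassmad lay near PDV for 37, near B9 for 10 and near neither for 48. For comparison, MSCP1 lay near PDV for 84 and PDVC57 for 44, while E4, a line with neither name, lay near PDV for 25. The 95 genes were chosen by their B9 and PDV values, so these counts only describe where each line lay. Over all genes kept, B9ras, B9Smad and B9rassmad were 2-fold from PDV in 307, 718 and 1960 and from B9 in 1962, 2604 and 2990. Gnai1, an inhibitory G protein subunit, was 3.68 in B9, 11.36 in B9ras, 9.65 in B9Smad, 3.66 in B9rassmad and 11.36 in PDV. Msln, the surface protein mesothelin, was 11.81 in B9, 8.39 in B9ras, 6.37 in B9Smad, 11.43 in B9rassmad and 7.01 in PDV. In these 2 genes, chosen after their values were seen from the 10 near B9, B9rassmad had the level of B9 and the other derivatives lay toward PDV or at it.

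Sex-linked transcripts set the lines apart in another way. Xist, the RNA that silences an X chromosome, was high in all 4 lines, at 10.73 in B9, 11.86 in B9ras, 11.25 in B9Smad and 11.30 in B9rassmad, and it was 11.71 in PDV. Eif2s3y, a translation factor gene of the Y chromosome, was 8.80 in B9 and 7.18 in B9rassmad. Its level was 3.17 in B9ras, 3.35 in B9Smad and 3.09 in PDV. The Y-linked genes Kdm5d and Uty, both histone demethylase genes, had the same order. Kdm5d was 6.93 in B9, 5.46 in B9rassmad and between 2.96 and 3.03 in the other derivatives, and Uty was 5.93 in B9, 4.80 in B9rassmad, 3.41 in B9ras and 3.59 in B9Smad. With the median of its probe sets, the Kdm5d differences from B9 were -0.97, -0.76 and -0.70 in B9ras, B9Smad and B9rassmad.

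Across the 26 lines Eif2s3y was either between 7.18 and 9.59, in 8 lines, or between 2.93 and 3.35, in 18 lines. Xist was between 8.44 and 13.34 in 16 lines and between 5.11 and 5.74 in 10. B9, B9rassmad and MSC11B were the 3 lines with a high level of both. The labels give no sex. B9ras and B9Smad, the derivatives near PDV, had high Xist without Y-linked signal, as PDV did. High Xist with low Eif2s3y was found in 13 of the 26 lines, so it is not particular to PDV.

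**Figure D2:**
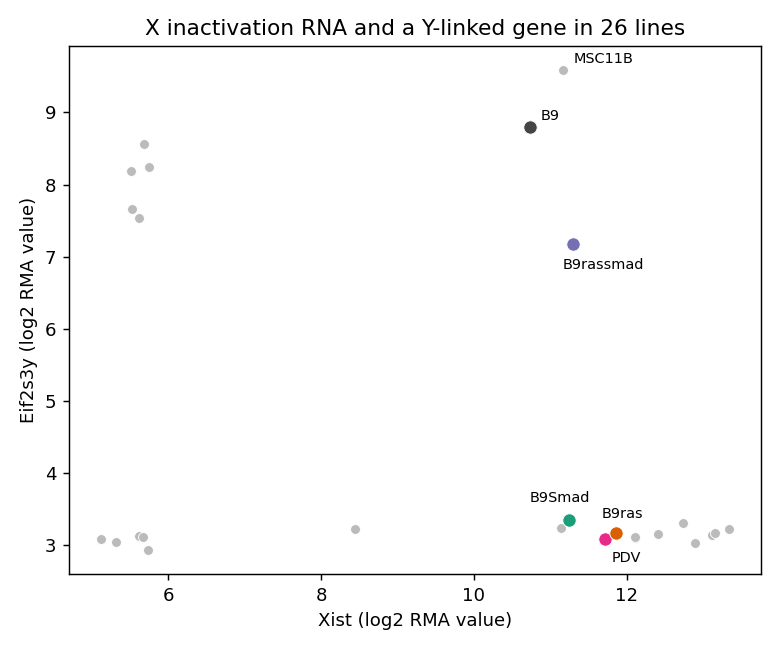
Xist level (x axis, log2 RMA value) against Eif2s3y level (y axis, log2 RMA value) in the 26 lines, 1 point per line. B9 and B9rassmad lie at the upper right with MSC11B, while B9ras, B9Smad and PDV lie at the lower right with Eif2s3y between 3.09 and 3.35.

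For B9ras and B9Smad, an effect of the gene in the name and a difference between B9 and a PDV-like line cannot be told apart from these arrays. B9rassmad also lay far from B9, and whether that came with the genes in its name was not tested. For this reason the counts over all genes are given against B9 and against PDV. The gene lists below are given against B9, and only some of them also against PDV. B9ras had 1962 genes 2-fold from B9, 16.7% of the genes kept, with 1074 higher (9.16%) and 888 lower (7.57%). Against PDV it had 307, or 2.62%, with 219 higher (1.87%) and 88 lower (0.750%). B9Smad had 2604 genes 2-fold from B9 (22.2%), with 1340 higher (11.4%) and 1264 lower (10.8%). Against PDV it had 718 (6.12%), with 372 higher (3.17%) and 346 lower (2.95%). B9rassmad had 2990 from B9 (25.5%), with 1694 higher (14.4%) and 1296 lower (11.05%), and 1960 from PDV (16.7%), with 1132 higher (9.65%) and 828 lower (7.06%). B9 and PDV themselves differed in 2049 genes, 17.5% of those kept, with 1090 higher in B9 (9.29%) and 959 lower (8.17%). B9ras thus differed from B9 in about as many genes as PDV did.

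All 3 derivatives differed from B9 the same way in 1156 genes (9.85% of those kept), with 606 higher (5.17%) and 550 lower (4.69%). Every one of these rests on the single B9 array that the comparisons share. Vim, the intermediate filament protein vimentin, was 5.14 in B9, 12.71 in B9ras, 13.91 in B9Smad, 13.80 in B9rassmad and 12.94 in PDV. Fn1, the matrix protein fibronectin, was 6.51 in B9, 12.65 in B9ras, 12.18 in B9Smad, 12.85 in B9rassmad and 12.36 in PDV. Sparc, a collagen-binding matricellular protein, was 3.88 in B9 and 12.38, 11.58 and 11.10 in B9ras, B9Smad and B9rassmad. For these 3 genes B9 was low and every derivative, with PDV, was high. B9 lay below all 9 other carcinoma lines without spindle pathology, whose lowest values were 11.45 for Vim, 11.97 for Fn1 and 10.27 for Sparc.

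Other genes of the shared rise differed in how widely they were high among the 9 lines. Cd34, a sialomucin that marks hair follicle stem cells, was 3.91 in B9, 10.57 in B9ras, 11.16 in B9Smad, 10.04 in B9rassmad and 9.62 in PDV. Among the 9 other carcinoma lines its highest value was that of PDV. Ctsz, the lysosomal protease cathepsin Z, was 4.43 in B9, 11.98 in B9ras, 11.21 in B9Smad, 10.58 in B9rassmad and 11.20 in PDV, but 3.70 in PDVC57. Slc14a1, a urea transporter, was 3.51 in B9 and 9.01, 9.18 and 9.91 in the derivatives, and its lowest value among the 9 lines was 3.13. Zfpm2, a cofactor of GATA factors, was 3.32 in B9 and 9.35, 9.92 and 9.51 in the derivatives, and Lhfp, a membrane protein gene, was 3.86 in B9 and 10.93, 10.04 and 10.36. B9 lay below all 9 lines for Zfpm2 and Lhfp, whose lowest values there were 5.61 and 9.84.

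Among the shared lower genes, Prdx4, a peroxiredoxin of the secretory pathway, had the widest gap between B9 and the nearest derivative on the probe set used. It was 11.41 in B9, 3.74 in B9ras, 3.73 in B9Smad, 3.21 in B9rassmad and 3.55 in PDV, so the derivatives were at background. With the median of its 4 probe sets, the Prdx4 differences from B9 were -4.10, -3.67 and -4.27, so their size depends on the probe set. Cldn7, a tight junction claudin, was 11.29 in B9 and 4.05, 4.18 and 3.91 in B9ras, B9Smad and B9rassmad, with 4.23 in PDV. Cldn1, another claudin of the epidermal barrier, was 9.68 in B9 and 4.22, 3.81 and 4.39 in the derivatives, with 5.50 in PDV. Epgn, the EGF receptor ligand epigen, was 10.99 in B9 and between 4.33 and 4.66 in the derivatives. S100a9, a calcium-binding protein of inflamed skin, was 9.31 in B9 and between 3.45 and 4.09 in the derivatives. Tmem30b and Atp8b1, a subunit and a catalytic member of the lipid flippases, were 9.53 and 8.49 in B9 and at most 3.43 in any derivative. Gpat2, an acyltransferase gene best known from testis, was 9.73 in B9 and between 3.77 and 4.06 in the derivatives.

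**Figure D3:**
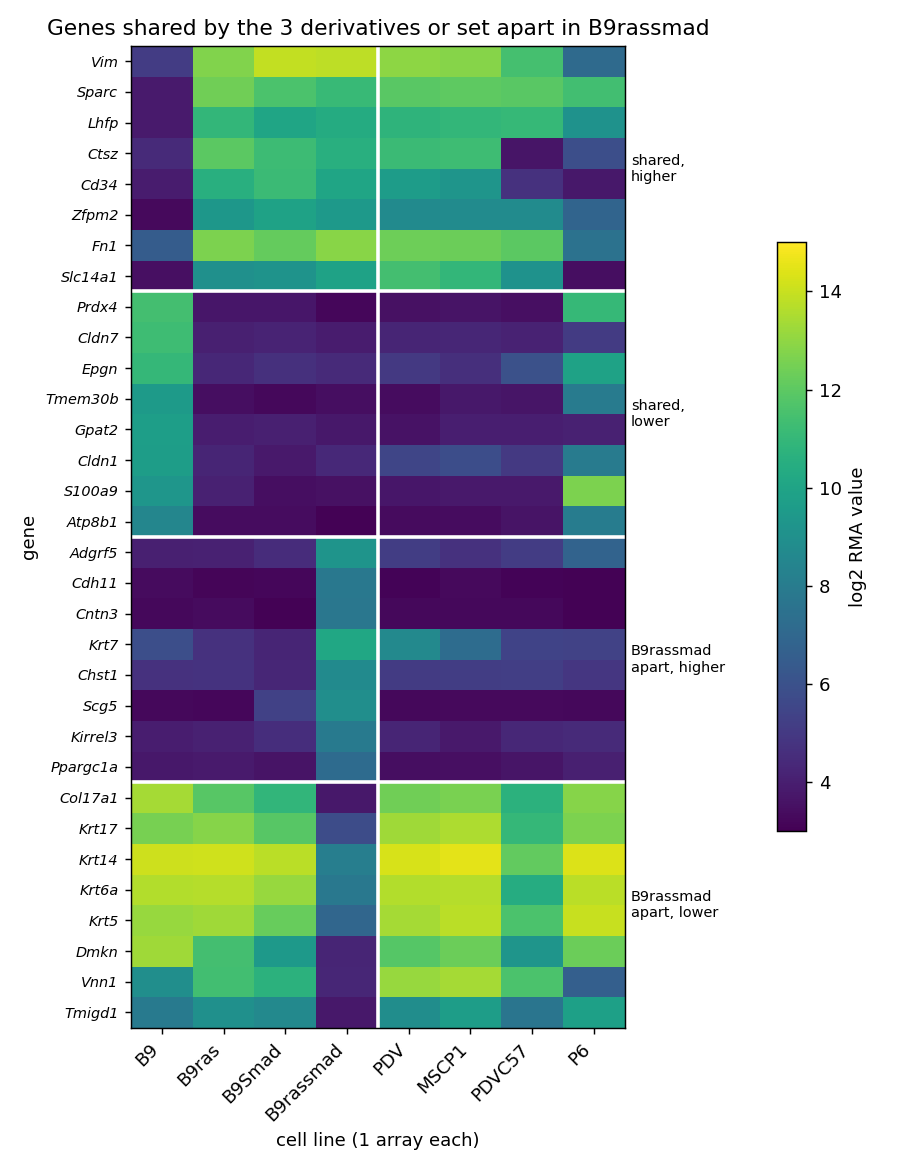
Log2 RMA value (colour scale) of the 8 genes with the largest smallest difference in each of 4 sets (rows), in the 4 B9 lines and in PDV, MSCP1, PDVC57 and P6 (columns, 1 array each). In the shared sets PDV and MSCP1 mostly have the colour of the derivatives, and in the lower set apart in B9rassmad the keratin genes and Col17a1 are darkest in B9rassmad among the 8 lines.

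The place of B9 among the other lines bears on the shared genes. Of the 1156, B9 lay outside the range of the 9 other carcinoma lines without spindle pathology in 761, and the mean of the 3 derivatives lay outside it in 100. Over all 11731 genes kept, these counts were 3263 and 663. PDV differed 2-fold from B9 in 981 of the 1156 and in 2049 of all genes. It was within 2-fold of the derivatives' mean in 981 of the 1156 and in 11097 of all genes, and P6 was within 2-fold of B9 in 622 and in 10010. These counts are a description and support nothing about the set, because the genes were chosen for a difference of B9 from the derivatives. The 9 lines also include PDV and MSCP1, which are near B9ras, and a mean of 3 arrays is set against the single B9 array.

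B9ras was compared further with B9 and PDV together, a rule added after values were seen. B9ras was 2-fold beyond both in the same direction in 151 genes (1.29%), with 104 higher (0.887%) and 47 lower (0.401%). Lgals1, the glycan-binding protein galectin-1, was 7.29 in B9, 13.34 in B9ras, 12.47 in B9Smad, 13.87 in B9rassmad and 8.36 in PDV. Eya1, a transcriptional coactivator and phosphatase, was 3.86 in B9, 8.0 in B9ras, 9.59 in B9Smad, 9.21 in B9rassmad and 5.02 in PDV. In both genes all 3 derivatives were above B9 and PDV, and PDVC57 was also high, at 13.68 for Lgals1 and 8.69 for Eya1.

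Tmprss11a, a membrane serine protease of epithelia, was 6.20 in B9ras and between 2.95 and 3.18 in the other 3 lines and PDV. Zfp979, a zinc finger gene, was 6.28 in B9ras and between 2.99 and 3.92 in the same 4 lines. These 2 genes were high in B9ras only among the 5 lines compared. Gask1b, a Golgi kinase-like gene, was 3.86 in B9, 7.10 in B9ras, 4.13 in B9Smad, 6.44 in B9rassmad and 3.68 in PDV, so it was high in the lines with ras in the name.

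Ctsc and Krt8 led the genes in which B9ras was below both B9 and PDV. Krt8, a keratin of simple epithelia, was 13.37 in B9, 6.59 in B9ras, 5.52 in B9Smad, 13.02 in B9rassmad and 10.93 in PDV. Ctsc, the protease cathepsin C, was 9.42 in B9, 4.32 in B9ras, 3.90 in B9Smad, 6.63 in B9rassmad and 9.08 in PDV. The median over all Ctsc probe sets gave a B9ras difference from B9 of -0.50, so the size for this gene depends on the probe set. Efemp1, a fibulin of the matrix, was 7.59 in B9, 3.20 in B9ras, 8.03 in B9Smad, 3.41 in B9rassmad and 6.25 in PDV, low in both lines with ras in the name. Pmaip1, the cell death gene Noxa, was 9.37 in B9, 3.24 in B9ras, 7.45 in B9Smad, 6.67 in B9rassmad and 5.99 in PDV.

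B9Smad was 2-fold beyond both B9 and PDV in 430 genes (3.67%), with 233 higher (1.99%) and 197 lower (1.68%). Ccl2, a chemokine for monocytes, was 5.60 in B9, 5.22 in B9ras, 10.97 in B9Smad, 6.95 in B9rassmad and 5.94 in PDV. Il6, an inflammatory cytokine, was 7.55 in B9Smad and between 3.29 and 3.41 in the other 3 lines and PDV. Lcn2, the iron-siderophore binder lipocalin 2, was 8.05 in B9Smad and between 3.28 and 3.48 in the same 4. Il6 and Lcn2 were thus at background in B9rassmad, which also has Smad in its name, and Ccl2 was 1.35 above B9 there.

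A further set was high in B9Smad and B9rassmad alike. Pcolce, an enhancer of procollagen processing, was 4.51 in B9, 5.97 in B9ras, 10.76 in B9Smad, 13.05 in B9rassmad and 4.64 in PDV. Mcpt8, a serine protease gene known from basophils, was 4.64 in B9, 4.92 in B9ras, 9.98 in B9Smad, 9.29 in B9rassmad and 4.64 in PDV. Gpr149, an orphan receptor, was 8.30 in B9Smad and 8.76 in B9rassmad and between 3.25 and 3.37 in B9, B9ras and PDV.

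Beside Prdx4, Krt8 and Cldn7, the genes furthest below B9 in B9Smad were the epithelial genes Cldn4, Tmprss11e and S100a14. Cldn4, a claudin, was 13.14 in B9, 7.64 in B9ras, 4.72 in B9Smad, 8.20 in B9rassmad and 7.03 in PDV. Tmprss11e, an epithelial membrane protease, was 11.07 in B9, 8.06 in B9ras, 3.44 in B9Smad, 4.66 in B9rassmad and 5.36 in PDV. S100a14, an epithelial calcium-binding protein, was 12.43 in B9, 8.51 in B9ras, 5.08 in B9Smad, 6.92 in B9rassmad and 9.09 in PDV. B9Smad had the lowest value of each. Ppbp, a chemokine known from platelets, was 14.29 in B9, 12.60 in B9ras, 7.66 in B9Smad, 10.79 in B9rassmad and 12.63 in PDV.

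B9rassmad differed 2-fold from each of the other 3 lines in the same direction in 462 genes (3.94%), with 242 higher (2.06%) and 220 lower (1.88%). The lower genes were led by basal epidermal genes. Col17a1, the hemidesmosome collagen XVII, was 13.40 in B9, 11.86 in B9ras, 10.88 in B9Smad, 3.75 in B9rassmad and 12.42 in PDV. Krt14, the basal keratin, was 14.09 in B9, 14.15 in B9ras, 13.75 in B9Smad, 8.11 in B9rassmad and 14.25 in PDV. Krt5, its partner, was 13.17 in B9, 13.28 in B9ras, 12.22 in B9Smad, 6.95 in B9rassmad and 13.39 in PDV. B9rassmad alone of these lines lay far below the others for the basal keratin pair.

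Krt17 and Krt6a, keratins of hair follicles and of stressed epidermis, had the same form. Krt17 was 12.53 in B9, 12.84 in B9ras, 11.86 in B9Smad and 5.81 in B9rassmad, and Krt6a was 13.60, 13.65, 13.17 and 7.82 in the same order. Other such keratins did not. Krt16, a stress keratin, was 12.31, 9.44, 7.93 and 4.80, already lower than B9 in B9ras and B9Smad, and Krt15, a keratin of the follicle bulge, was 6.80, 7.67, 5.04 and 5.53, lowest in B9Smad. Dmkn, the secreted epidermal protein dermokine, was 13.30 in B9, 11.43 in B9ras, 9.46 in B9Smad, 4.22 in B9rassmad and 11.84 in PDV. Vnn1, a pantetheinase, was 8.94 in B9, 11.35 in B9ras, 10.69 in B9Smad and 4.31 in B9rassmad, and Tmigd1, an adhesion protein of epithelia, was 7.93, 9.04, 8.67 and 3.75. For Krt17, Krt6a, Dmkn, Vnn1 and Tmigd1, B9rassmad lay far below the other 3 lines, which were within 2-fold of each other for Krt17 and Krt6a.

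Epidermal identity markers were checked in all 4 lines. Trp63, the master transcription factor of stratified epithelium, was 9.82 in B9, 11.22 in B9ras, 10.62 in B9Smad, 5.96 in B9rassmad and 11.32 in PDV. Itgb4, the hemidesmosome integrin subunit, was 12.53 in B9, 11.87 in B9ras, 11.11 in B9Smad and 7.01 in B9rassmad. Cdh1, the junction protein E-cadherin, was 11.78 in B9, 10.94 in B9ras, 8.49 in B9Smad and 9.13 in B9rassmad, and Epcam, an epithelial adhesion protein, was 13.12, 11.93, 10.51 and 9.04. Itga6, another integrin subunit, was 13.11 in B9, 13.46 in B9ras, 12.88 in B9Smad and 11.15 in B9rassmad. B9rassmad, labelled as squamous without spindle pathology, was thus far below the other lines in Trp63, Itgb4, Krt5 and Krt14. Epcam and Itga6 were also lowest in B9rassmad, and Cdh1 was below B9 and B9ras but above B9Smad. Itga6, Cdh1, Epcam and Krt14 were still well above the array median in B9rassmad.

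Against B9 and PDV together, B9rassmad was 2-fold beyond both in 1065 genes (9.08%), with 617 higher (5.26%) and 448 lower (3.82%). Aqp5, a water channel of gland cells, was 5.95 in B9, 7.42 in B9ras, 8.70 in B9Smad, 11.25 in B9rassmad and 5.72 in PDV. This count was far above the 151 of B9ras.

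The genes higher in B9rassmad than in the other 3 lines were of mixed kinds. Cdh11, a mesenchymal cadherin, was 7.82 in B9rassmad and between 3.17 and 3.37 in the other 3 lines. Adgrf5, an adhesion G protein-coupled receptor, was 9.21 in B9rassmad and between 4.07 and 4.53 in the others. Krt7, a simple keratin, was 5.89 in B9, 4.69 in B9ras, 4.26 in B9Smad, 10.14 in B9rassmad and 8.63 in PDV. Scg5, a secretory granule chaperone, was 3.27 in B9, 3.23 in B9ras, 5.32 in B9Smad and 8.95 in B9rassmad. Cntn3, a neural adhesion protein, was 7.75 in B9rassmad and between 3.09 and 3.36 in the others, and no other carcinoma line without spindle pathology exceeded 3.39. Ppargc1a, a coactivator of mitochondrial genes, was 7.20 in B9rassmad and between 3.62 and 3.89 in the others.

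Levels of these 462 genes in B9rassmad were also set beside those of lines outside the rule. Over all 11731 genes kept, the spindle lines H11, A5 and CarC were 2-fold from B9rassmad in 1223, 1372 and 3185. E4 was 2-fold from it in 1297, and the other lines named here lay between H11 and CarC. Most of all genes kept were thus within 2-fold of B9rassmad in each of these lines. Of the 242 higher genes, the spindle lines A5 and H11 were within 2-fold of B9rassmad in 140 and 138, CarB in 118 and CarC in 113. Among carcinoma lines without spindle pathology, MSC12 was within 2-fold in 126, MSC11B in 120 and E4 in 115. Of the 220 lower genes, the spindle lines D3 and H11 were within 2-fold in 140 and 139 and CarB and CarC in 121 each, while MSC12 and E4 were in 132 each and MSC11B in 124. The spindle lines MSN2 and D3DP were within 2-fold in 136 and 131 of the higher genes and 135 and 137 of the lower. Among the lines grouped as spindle carcinoma, the lowest counts were 113 and 121. MSC7A and SN161, without spindle pathology, were within 2-fold in 112 and 120 of the higher and 108 and 90 of the lower. MSCP5, PDVC57 and MSCP1, also without it, were in 98, 61 and 11 of the higher and 45, 63 and 10 of the lower. Both kinds of line thus overlapped, but those without spindle pathology also reached far lower counts. In each of these lines the share within 2-fold was smaller in both sets than over all genes kept. The counts are therefore not read as a likeness to B9rassmad. PDV was within 2-fold in 18 and 12. The genes were chosen to differ from B9ras and B9Smad, which PDV and MSCP1 resemble. Low counts in PDV and MSCP1 thus follow largely from the choice. B9Smad lay between B9rassmad and both B9 and B9ras in 132 of the higher and 141 of the lower genes, and by 2-fold in 18 and 32. In most genes set apart in B9rassmad, B9Smad was thus not 2-fold beyond both B9 and B9ras.

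Promoter sequences of the genes set apart were read from RefSeq (GRCm38.p6) to show the DNA at genes that were low together. The motif searched was TGANTCA, the AP-1 motif, on both strands in the 250 bases before each start site. At least 1 promoter entry held it in 12.0% of the 435 shared lower genes with an entry and in 12.4% of the 169 genes lower in B9rassmad. The share was 5.5% of the 471 shared higher genes, 7.9% of the 191 genes higher in B9rassmad and 5.7% of the 9509 genes kept. Counted by entry, 6.7% of all 32851 promoters held it. Among the genes named from the 4 sets with a promoter entry, Dmkn and Tmigd1, both lower in B9rassmad, held it. Tmigd1 has another promoter entry, which did not hold the motif, and all 3 entries of Dmkn did. 1 promoter of each is shown 5′ to 3′ on the plus strand, with the motif in capitals, first base at -89 for Dmkn at chr7:30763506-30763755 and at -43 for Tmigd1 at chr11:76890870-76891119. A match is a run of letters and was not tested as a site.
Dmkn: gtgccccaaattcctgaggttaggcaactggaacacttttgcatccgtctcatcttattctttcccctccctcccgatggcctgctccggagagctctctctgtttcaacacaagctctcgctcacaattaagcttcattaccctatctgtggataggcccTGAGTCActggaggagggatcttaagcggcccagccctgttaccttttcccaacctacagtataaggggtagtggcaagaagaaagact
Tmigd1: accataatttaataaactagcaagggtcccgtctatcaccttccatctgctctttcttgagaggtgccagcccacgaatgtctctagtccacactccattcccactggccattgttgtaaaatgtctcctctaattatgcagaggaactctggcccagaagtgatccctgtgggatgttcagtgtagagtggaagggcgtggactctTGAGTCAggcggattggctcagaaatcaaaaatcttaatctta

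Gene lists of epithelial and mesenchymal function were then counted. Their counts against B9 are read beside the shares of all genes kept, which were 9.16% higher and 7.57% lower in B9ras, 11.4% and 10.8% in B9Smad, and 14.4% and 11.05% in B9rassmad. Of 25 epithelial junction genes kept, 0 were higher than in B9 in any derivative. Lower were 14 in B9ras (median difference -1.63), 22 in B9Smad (-2.62) and 23 in B9rassmad (-2.67), against medians over all genes kept of -0.03, 0.02 and 0.08. Against PDV, 3 were lower in B9ras, 15 in B9Smad and 18 in B9rassmad, with medians of -0.05, -1.14 and -1.35. Higher than in PDV was 1, in B9rassmad. Of all genes, 0.750%, 2.95% and 7.06% were lower than in PDV, in the same order of lines. B9Smad and B9rassmad were thus low in junction genes against both reference lines, and B9ras mainly against B9. Ovol1, an epidermal transcription factor, was 8.73 in B9, 5.77 in B9ras, 4.79 in B9Smad, 3.97 in B9rassmad and 6.16 in PDV.

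Desmosome and hemidesmosome genes set B9rassmad apart. Of 19 kept, 16 were lower than in B9 in B9rassmad, 12 in B9Smad and 5 in B9ras, beside 11.05%, 10.8% and 7.57% of all genes, with medians of -2.60, -1.06 and -0.37. Higher were 0, 2 and 3 in the same order. Against PDV, 14 were lower in B9rassmad, 8 in B9Smad and 0 in B9ras, beside 7.06%, 2.95% and 0.750% of all genes. Only 1 was higher than in PDV, in B9rassmad. Dsc3, a desmosomal cadherin, was 6.14 in B9, 11.01 in B9ras, 9.96 in B9Smad and 3.80 in B9rassmad, and Dsg2, another, was 6.75, 11.01, 9.85 and 3.55, so both were higher than B9 in B9ras and B9Smad and lower in B9rassmad. With the median of their probe sets, Dsc3 in B9rassmad and Dsg2 in B9Smad did not pass 2-fold, at -0.98 and 0.91 from B9. B9rassmad was 2-fold below each of the other 3 lines in 13 of the 19, beside 1.88% of all genes. Lama3, a chain of laminin-332, was 13.67 in B9, 12.10 in B9ras, 10.76 in B9Smad, 7.39 in B9rassmad and 12.07 in PDV, and Lamb3, its partner chain, was 12.97, 11.63, 11.04, 7.38 and 11.68. Both chains were more than 2-fold lower in B9rassmad than in any of the other lines.

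Squamous differentiation genes, which build the cornified layer, were lower than in B9 in 11 of 21 in B9ras, 15 in B9Smad and 16 in B9rassmad, beside 7.57%, 10.8% and 11.05% of all genes, with medians of -1.03, -2.74 and -2.38. Higher were 4, 2 and 0. Against PDV the medians were 0.38, -0.39 and -0.20, with 5 higher and 0 lower in B9ras, 0 and 9 in B9Smad, and 2 and 7 in B9rassmad. Of all genes, 1.87% were higher and 0.750% lower than in PDV in B9ras, 3.17% and 2.95% in B9Smad, and 9.65% and 7.06% in B9rassmad. Ivl, the cornified envelope protein involucrin, was 10.70 in B9, 6.84 in B9ras, 4.31 in B9Smad, 4.86 in B9rassmad and 5.83 in PDV. Krtdap, a keratinocyte differentiation protein, went another way, at 6.09 in B9, 12.31 in B9ras, 7.94 in B9Smad, 3.99 in B9rassmad and 12.72 in PDV. Of 13 keratins kept, 4 were lower than in B9 in B9ras, 6 in B9Smad and 8 in B9rassmad, and 1, 0 and 1 were higher. Krt6b, a keratin of activated epidermis, was 12.23 in B9, 9.97 in B9ras, 5.16 in B9Smad, 4.14 in B9rassmad and 7.67 in PDV.

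**Figure D4:**
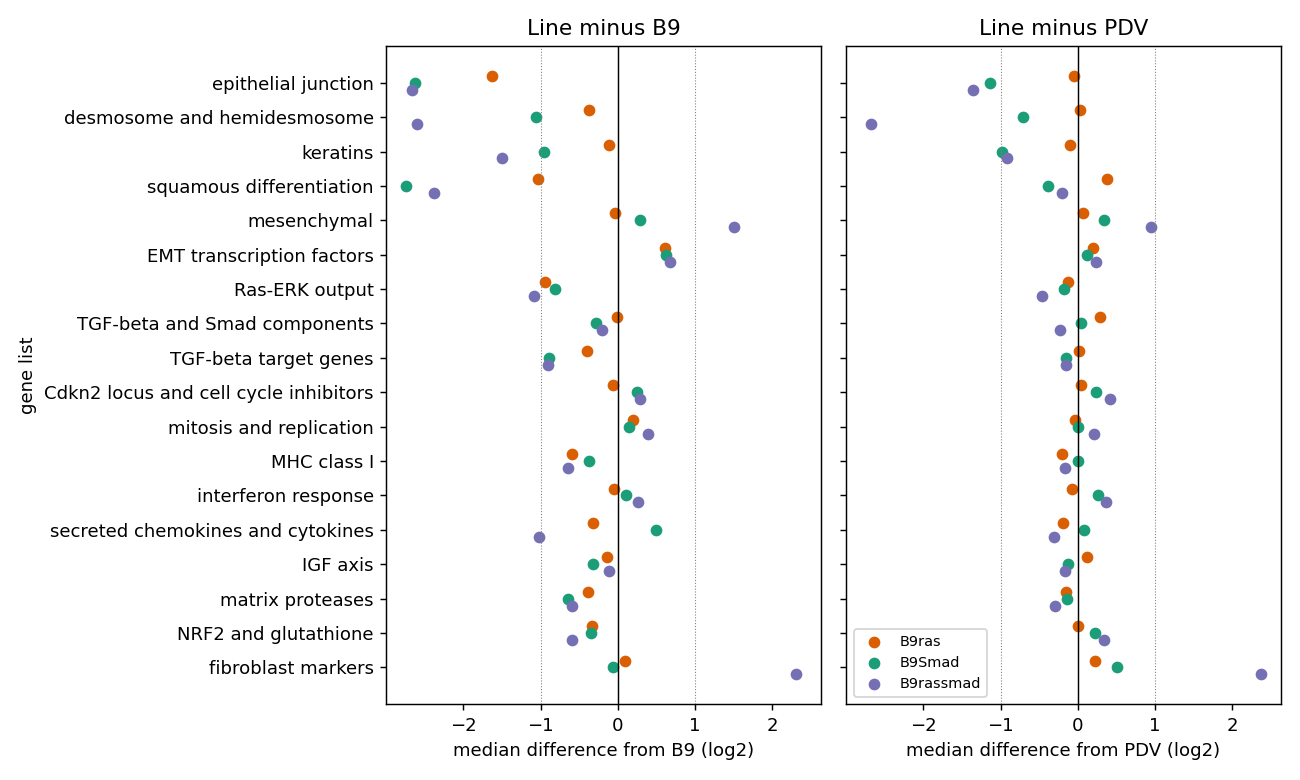
Median log2 difference of the genes of each list (rows) in B9ras, B9Smad and B9rassmad (points) from B9 (left) and from PDV (right), with dotted lines at 2-fold. Epithelial junction medians lie between -1.63 and -2.67 against B9, but near 0 for B9ras against PDV, and the desmosome and hemidesmosome median of B9rassmad lies below -2 in both panels.

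Against B9, mesenchymal genes did not move as a block. Of 22 kept, 5 were higher and 3 lower in B9ras than in B9, 10 higher and 5 lower in B9Smad, and 11 higher and 5 lower in B9rassmad. The median differences were -0.03, 0.29 and 1.51, and the last was 0.96 with the median of each gene's probe sets. Of all genes, 9.16% were higher and 7.57% lower in B9ras, 11.4% and 10.8% in B9Smad, and 14.4% and 11.05% in B9rassmad. Against PDV, 3 were higher and 1 lower in B9ras, 8 and 0 in B9Smad, and 10 and 1 in B9rassmad. The shares of all genes there were 1.87% and 0.750%, 3.17% and 2.95%, and 9.65% and 7.06%. Cdh11 and Dcn passed the filter through B9rassmad alone. Col3a1, a fibrillar collagen, was 4.49 in B9, 4.57 in B9ras, 7.02 in B9Smad, 8.80 in B9rassmad and 4.57 in PDV. Cdh2, N-cadherin, was high in B9, at 9.52, and was 3.42 in B9ras, 3.80 in B9Smad, 4.95 in B9rassmad and 3.21 in PDV. A cadherin known from mesenchymal cells was thus highest in the line with the lowest Vim.

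EMT transcription factors were higher than in B9 in 4 of 12 genes in B9ras, 6 in B9Smad and 5 in B9rassmad. Of all genes, 9.16%, 11.4% and 14.4% were higher, and 0 of the 12 were lower. Against PDV, 1 was higher and 0 lower in B9ras, 3 and 2 in B9Smad, and 5 and 2 in B9rassmad. The shares of all genes against PDV were 1.87% and 0.750%, 3.17% and 2.95%, and 9.65% and 7.06%. Zeb2, a repressor of epithelial genes, was 4.13 in B9, 6.34 in B9ras, 8.02 in B9Smad, 8.66 in B9rassmad and 5.77 in PDV. Foxc2, a forkhead factor, was 4.24 in B9, 8.23 in B9ras, 7.99 in B9Smad, 8.25 in B9rassmad and 8.91 in PDV. Twist1, a basic helix-loop-helix factor, was 5.36 in B9, 6.93 in B9ras, 7.50 in B9Smad, 8.41 in B9rassmad and 6.84 in PDV. These 3 factors were above B9 in every derivative. Prrx1, a homeobox factor of mesenchyme, was 3.53 in B9, 5.15 in B9ras, 3.72 in B9Smad, 7.69 in B9rassmad and 4.91 in PDV. Zeb1 was between 5.05 and 6.12 in the 4 lines and Snai2 between 10.28 and 11.37, while Snai1 was at or below 4.45.

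Output genes of the Ras-ERK pathway were more often lower than higher in the lines with ras in the name than in B9, and the rest were within 2-fold. Of 36 kept, 2 were higher and 17 lower in B9ras (median -0.94), 4 higher and 18 lower in B9Smad (-0.81), and 3 higher and 18 lower in B9rassmad (-1.09). Of all genes, 9.16% were higher and 7.57% lower in B9ras, 11.4% and 10.8% in B9Smad, and 14.4% and 11.05% in B9rassmad. B9Smad, with no ras in its name, had nearly the same counts. Against PDV, 1 was higher and 2 lower in B9ras, 2 higher and 3 lower in B9Smad, and 3 higher and 8 lower in B9rassmad. Of all genes, 1.87% were higher and 0.750% lower than in PDV in B9ras, 3.17% and 2.95% in B9Smad, and 9.65% and 7.06% in B9rassmad. PDV itself was lower than B9 in 16 of the 36 and higher in 3, beside 9.29% and 8.17% of all genes.

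Dusp5, a nuclear phosphatase that switches ERK off, was 10.71 in B9, 7.52 in B9ras, 7.81 in B9Smad, 7.55 in B9rassmad and 7.70 in PDV. Plau, the plasminogen activator urokinase, was 10.48 in B9, 5.60 in B9ras, 4.47 in B9Smad, 6.05 in B9rassmad and 6.08 in PDV, and Plaur, its receptor, was 11.59, 9.33, 9.10, 8.69 and 9.25. Both were lower in every derivative than in B9. The EGF receptor ligand Ereg was 11.57 in B9, 9.03 in B9ras, 10.13 in B9Smad and 8.45 in B9rassmad, and the prostaglandin synthase Ptgs2 was 13.06, 11.09 and 11.47, with a B9rassmad difference from B9 of -3.06. Il1a, an epithelial alarm cytokine, was 10.94 in B9, 8.10 in B9ras, 8.56 in B9Smad, 5.06 in B9rassmad and 8.82 in PDV. The feedback inhibitor Spry1 and the ETS factor Etv5 had the opposite direction. Spry1 was 6.20 in B9, 7.60 in B9ras, 9.20 in B9Smad and 8.70 in B9rassmad, and Etv5 was 6.21, 7.75, 7.40 and 8.14. Dusp6, the cytoplasmic ERK phosphatase, was within 2-fold of B9 in all 3, at 11.17 in B9, 10.27 in B9ras, 10.99 in B9Smad and 10.26 in B9rassmad. Values of the Smad genes are given next to ask the same of the other name.

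No Smad gene was 2-fold higher in both lines with Smad in the name. Smad4, the common mediator, was 10.42 in B9, 10.07 in B9ras, 10.38 in B9Smad and 10.88 in B9rassmad. With the median of its probe sets, Smad4 was 1.11 above B9 in B9rassmad. Smad2, which carries TGF-beta and activin signals, was 8.54 in B9, 8.77 in B9ras, 8.99 in B9Smad and 8.94 in B9rassmad, and Smad3, its close relative, was 9.0, 8.52, 8.41 and 9.11. Smad1 and Smad5, which carry BMP signals, were between 8.79 and 9.15 and between 7.34 and 7.91. The inhibitory Smad6 was 5.11 in B9, 6.04 in B9ras, 6.60 in B9Smad and 6.06 in B9rassmad, and was 2-fold above B9 in B9Smad. The inhibitory Smad7, itself a TGF-beta target, was 9.65 in B9, 8.18 in B9ras, 8.38 in B9Smad and 8.52 in B9rassmad. A 3' array probe set need not match an introduced cDNA, and which sequence was introduced is not given, so these values do not check the labels.

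Among all 34 TGF-beta and Smad component genes kept, 7 were higher and 4 lower than in B9 in B9ras, 8 higher and 9 lower in B9Smad, and 4 higher and 11 lower in B9rassmad. The shares of all genes were 9.16% and 7.57%, 11.4% and 10.8%, and 14.4% and 11.05%, so the count higher in B9rassmad was below that of all genes. The ligand Tgfb3 was 4.57 in B9, 7.35 in B9ras, 7.50 in B9Smad, 7.14 in B9rassmad and 6.07 in PDV. The co-receptor Tgfbr3 was 5.92 in B9, 8.66 in B9ras, 8.47 in B9Smad and 8.26 in B9rassmad, and the latent binding protein Ltbp3 was 8.50, 10.83, 10.60 and 11.24. These 3 genes were higher than in B9 in every derivative.

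The activin subunit genes were lower than in B9 in every derivative. Inhba was 10.11 in B9, 8.33 in B9ras, 8.34 in B9Smad, 7.50 in B9rassmad and 8.04 in PDV, and Inhbb was 9.56, 6.97, 4.67, 7.17 and 7.60. Fst, the activin trap follistatin, was 12.71 in B9, 11.94 in B9ras, 10.62 in B9Smad, 8.25 in B9rassmad and 11.97 in PDV, within 2-fold of B9 in B9ras and lower in the other derivatives. The signalling receptor Tgfbr1 was 10.74 in B9, 10.94 in B9ras, 10.37 in B9Smad and 8.98 in B9rassmad, and Tgfbr2 was between 11.32 and 12.45. B9rassmad was the lowest of the 4 lines for Fst and Tgfbr1.

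Of 31 TGF-beta target genes kept, 4 were higher and 8 lower than in B9 in B9ras, 3 higher and 15 lower in B9Smad, and 2 higher and 15 lower in B9rassmad, beside 7.57%, 10.8% and 11.05% of all genes lower. Medians were -0.40, -0.89 and -0.91 against B9 and 0.01, -0.15 and -0.15 against PDV. Junb, an immediate target, was 9.73 in B9, 8.03 in B9ras, 7.97 in B9Smad and 7.53 in B9rassmad, and Pmepa1, a feedback inhibitor, was 10.65, 9.20, 8.89 and 8.88. Col4a1, a basement membrane collagen, was higher, at 7.81 in B9, 10.55 in B9ras, 9.99 in B9Smad, 10.59 in B9rassmad and 11.11 in PDV. Itgb6, the integrin subunit that activates TGF-beta, was 7.93 in B9, 7.77 in B9ras, 6.68 in B9Smad, 3.78 in B9rassmad and 8.90 in PDV. Cdkn1a, the cell cycle inhibitor p21, was 10.26 in B9, 8.74 in B9ras, 8.77 in B9Smad, 10.40 in B9rassmad and 8.15 in PDV, so B9rassmad had the level of B9.

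Of 23 mitosis and replication genes, 1 was higher than in B9 in B9ras, 2 in B9Smad and 3 in B9rassmad, with 0 lower in each. These counts were near or below the 9.16%, 11.4% and 14.4% of all genes higher. Mcm5, a subunit of the replicative helicase, was 10.21 in B9, 11.18 in B9ras, 11.08 in B9Smad and 11.71 in B9rassmad. Cdkn2a, which encodes the inhibitors p16 and p19, was 6.29 in B9, 7.60 in B9ras, 8.27 in B9Smad, 8.22 in B9rassmad and 7.32 in PDV. Cdkn2b, the neighbouring inhibitor p15, was between 8.20 and 9.02 in the 4 lines. Ccnd2, a D-type cyclin, was 10.78 in B9, 12.99 in B9ras, 12.51 in B9Smad, 10.89 in B9rassmad and 12.99 in PDV.

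Immune signalling genes divided the derivatives. Of 19 secreted chemokines and cytokines kept, 9 were higher and 4 lower than in B9 in B9Smad, while 2 were higher and 10 lower in B9rassmad, and 4 higher and 6 lower in B9ras. Of all genes, 11.4% were higher and 10.8% lower in B9Smad, 14.4% and 11.05% in B9rassmad, and 9.16% and 7.57% in B9ras. Tslp, an epithelial cytokine, was 4.02 in B9, 8.09 in B9ras, 6.46 in B9Smad, 4.97 in B9rassmad and 7.30 in PDV. Cxcl1, a neutrophil chemokine, was 9.49 in B9, 10.15 in B9ras, 10.74 in B9Smad, 7.52 in B9rassmad and 12.49 in PDV. Of 8 MHC class I genes kept, 3 were lower than in B9 in each derivative, beside 7.57%, 10.8% and 11.05% of all genes. Higher were 0 in B9ras and in B9Smad and 1 in B9rassmad. H2-K1, a classical class I heavy chain, was 11.69 in B9, 9.77 in B9ras, 10.28 in B9Smad, 9.34 in B9rassmad and 10.80 in PDV, and class I probe sets can share sequence between these close paralogs. Psmb10, an immunoproteasome subunit, was 6.72 in B9, 6.38 in B9ras, 6.93 in B9Smad and 8.25 in B9rassmad. Of 11 interferon response genes kept, 1 was higher than in B9 in B9ras, 2 in B9Smad and 3 in B9rassmad. With 9.16%, 11.4% and 14.4% of all genes higher, these counts are too small to set the list apart. Ifit2 was the gene higher in all 3, at 4.21 in B9, 6.67 in B9ras, 7.06 in B9Smad, 8.13 in B9rassmad and 5.18 in PDV.

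Matrix protease, antioxidant and IGF genes were counted in the same way, beside 9.16% higher and 7.57% lower of all genes in B9ras, 11.4% and 10.8% in B9Smad, and 14.4% and 11.05% in B9rassmad. Of 18 matrix protease genes kept, 3 were higher and 7 lower than in B9 in B9ras, 3 and 7 in B9Smad, and 4 and 8 in B9rassmad. Timp3, a protease inhibitor bound to matrix, was 4.58 in B9, 8.31 in B9ras, 10.24 in B9Smad, 7.77 in B9rassmad and 9.39 in PDV. Of 16 NRF2 and glutathione genes, 1 was higher and 4 lower in B9ras, 2 and 6 in B9Smad, and 4 and 6 in B9rassmad. The counts higher in B9ras and B9Smad were near the shares of all genes. Aldh1a1, a retinal dehydrogenase, was 10.44 in B9, 4.31 in B9ras, 3.86 in B9Smad, 9.13 in B9rassmad and 3.54 in PDV. Aldh3a1, another aldehyde dehydrogenase, was 3.63 in B9, 4.67 in B9ras, 7.49 in B9Smad, 9.31 in B9rassmad and 4.01 in PDV. Of 11 IGF axis genes, 0 were 2-fold from B9 in B9ras, 2 were lower in B9Smad, and 1 was higher and 3 lower in B9rassmad. Igfbp3, a binder of insulin-like growth factors, was 13.48 in B9, 13.10 in B9ras, 11.07 in B9Smad, 11.35 in B9rassmad and 12.57 in PDV.

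Markers of cell types other than keratinocytes were at background for most genes. Of 12 fibroblast markers, 6 passed the filter, and Col1a1, Lum, Thy1, Fap, Dpt and Pi16 did not, with values from 3.30 to 4.49 in the 4 lines. The mean level of the 6 that passed was 4.85 in B9, 5.16 in B9ras, 5.37 in B9Smad, 6.94 in B9rassmad and 4.63 in PDV. Of these 6, 4 were higher and 1 lower in B9rassmad than in B9, beside 14.4% and 11.05% of all genes. The higher were Col3a1, Prrx1, Dcn and Pdgfrb, whose B9rassmad values were 8.80, 7.69, 7.0 and 5.63. The lower was Pdgfra, at 7.81 in B9 and 6.43 in B9rassmad. Passing the filter took only 1 of the 4 lines above its array median. Dcn passed through B9rassmad alone, at 4.80, 4.70 and 4.33 in B9, B9ras and B9Smad. Col3a1 and Pdgfrb were below the median in B9 and B9ras. The count and the mean of B9rassmad are thus partly fixed by the filter and are not read as a result. Of 10 immune markers, 4 passed the filter, with mean levels between 5.83 and 6.57, and Ptprc, the pan-leukocyte marker CD45, was at most 4.54. Of 7 endothelial and 7 melanocyte markers, 3 and 3 passed, with mean levels at or below 4.94 and 5.85. Their part in the other differences was not tested.

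The 4 names form a 2 by 2 layout, which gives 2 differences for each name that share no array. For Smad these are B9Smad minus B9 and B9rassmad minus B9ras. The first had 1340 genes higher and the second 867 (7.39%), with 225 in common, 16.8% of the first and 26% of the second. Lower were 1264 and 868 (7.40%), with 245 in common, 19.4% and 28.2%. In the opposite direction, 158 of the 1340 and 129 of the 1264 passed 2-fold. Pcolce, Gpr149, Mcpt8, Aldh3a1, Gzme and Cck led the genes higher in both, and Krt6b, Fxyd3, Cwh43, Krt16, Nipal4 and Aqp3 led the genes lower in both.

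Values of this set show how it was split. Gzme, the protease granzyme E, was 3.32 in B9, 3.13 in B9ras, 7.37 in B9Smad and 6.84 in B9rassmad, and Cck, the peptide hormone cholecystokinin, was 4.33, 4.21, 7.93 and 8.89. Both were at background without Smad in the name and well above it with Smad. Aqp3, the water and glycerol channel of epidermis, was 11.78 in B9, 10.23 in B9ras, 7.32 in B9Smad and 6.22 in B9rassmad. Fxyd3, a regulator of the sodium pump, was 11.79, 9.92, 6.0 and 5.08, and Krt16 was likewise lower in each line with Smad in the name than in its partner without.

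For ras the 2 differences are B9ras minus B9 and B9rassmad minus B9Smad, and they had less in common. Higher were 1074 and 629 genes (5.36%), with 70 in common, 6.5% of the first and 11.1% of the second. Lower were 888 and 521 (4.44%), with 42 in common, 4.7% and 8.1%. In the opposite direction, 174 of the 1074 and 157 of the 888 passed 2-fold, more than in the same direction. The correlation over genes was -0.22 for ras and 0.11 for Smad, as a description. For each name, B9ras and B9Smad enter the 2 differences with opposite signs, and these lines were only 657 genes apart. A profile that both lines share therefore adds to the opposite direction and lowers both correlations. How much of the counts comes from this was not tested, so they are not read as a result about ras. Cavin2, a caveola coat protein, was 4.37 in B9, 8.69 in B9ras, 7.55 in B9Smad and 10.69 in B9rassmad. Plac8, a small cysteine-rich protein, was 4.30 in B9, 9.81 in B9ras, 5.41 in B9Smad and 8.09 in B9rassmad. Itga2, a collagen receptor subunit, was lower in both ras differences, at 10.14 in B9, 8.20 in B9ras, 7.92 in B9Smad and 5.96 in B9rassmad. The Plac8 level of B9ras was close to that of PDV, 9.49.

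**Figure D5:**
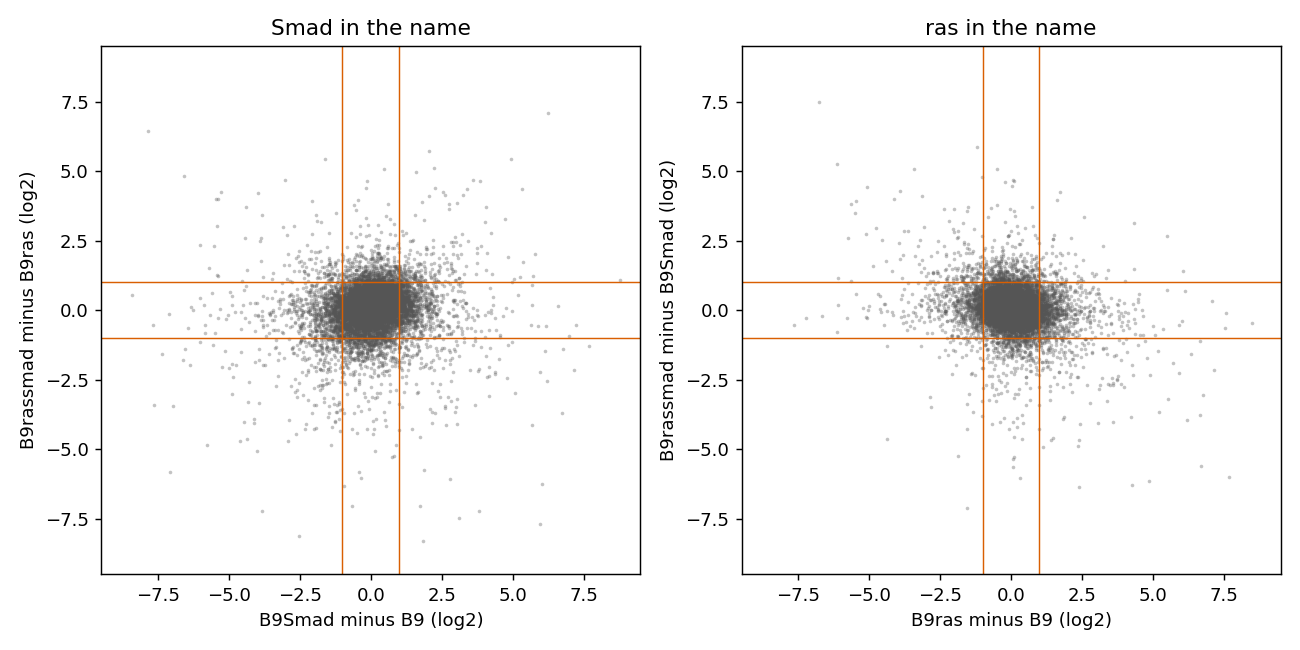
Differences between lines (log2) for each of 11731 genes (points), with lines at 2-fold, for the lines with and without Smad in the name (left) and with and without ras in the name (right). The correlation over genes is 0.11 on the left and -0.22 on the right.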

How the data were processed

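RNA of 26 mouse skin cell lines was measured on 1 array each. The authors deposited log2 values made with RMA, per the submitters' processing notes, for 45037 probe sets, with values from 2.28 to 14.92. RMA forces nearly equal distributions on the arrays, which hides a shift common to all genes. No RMA version or probe set definition was found in the labels or headers. In the platform annotation, 34945 probe sets had 1 gene symbol, 932 had several and 9160 were unnamed here, and 34741 were matched to a current gene ID of the RefSeq annotation of GRCm38.p6, used for names and promoter sequences only.

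Each gene was read from the probe set of highest mean across the 26 arrays. Lines were grouped by title. Differences were taken between arrays, with no test, in Python 3.11.15 (numpy 2.4.6, pandas 2.3.3). The number of arrays limits precision.

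Members and gene lists were chosen with earlier results of these data known. Named genes are the 6 largest rises and falls of each derivative, the 8 of each shared and B9rassmad set by smallest difference, 6 for each pair of disjoint differences, up to 4 of each list, and any member of the signalling, EMT, cell cycle inhibitor, MHC, sex-linked and cell type lists. Genes 2-fold from both B9 and PDV were added after values were seen. Alternatives were other thresholds, filters, probe set rules, a floor at the array median, centring, and cyclic loess (limma 3.58.1, R 4.3.3). Values of the Ras genes themselves are not reported here.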

Additional observations from a re-analysis of the deposited data

How the results depend on the processing

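No paired analysis was possible because each line has 1 array and the labels carry no replicate numbers, and for the same reason no line could be left out of a group. Counts of genes apart moved with the threshold and with counting each probe set by itself. At 1.5-fold, 4-fold and per probe set, they were 4103, 520 and 3742 for B9ras against B9, 4906, 726 and 4947 for B9Smad, and 5375, 825 and 5445 for B9rassmad. Against PDV they were 1005, 53 and 498 for B9ras, 2077, 173 and 1178 for B9Smad, 4211, 462 and 3502 for B9rassmad, and 4218, 533 and 4003 for B9. Genes shared by the 3 derivatives numbered 2487, 279 and 2110, and genes apart in B9rassmad 1365, 91 and 802, or 1067 when defined as 2-fold from B9 in B9rassmad and under 2-fold from B9 in B9ras and B9Smad. No filter, a filter over all lines, a floor at the array median, the median of probe sets and cyclic loess kept every such count within 1.5 times. Without centring, correlations with PDV were 0.98, 0.96 and 0.90 and with B9 0.89, 0.86 and 0.84 in B9ras, B9Smad and B9rassmad. With the median of probe sets, 21 of the differences of named genes with several probe sets changed sides of the 2-fold line, and the fibroblast marker median in B9rassmad was 1.21 in place of 2.31. Low signal limits what can be read below the array median, where a fold is compressed, and 1 array per line gives no error for any value.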
